A study of Homo sapiens with 4 samples.

Results

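The TAL1 core regulatory circuit is a set of transcription factors and bridging proteins that bind DNA together in T-cell acute lymphoblastic leukaemia. Its genes were taken by name from the deposited expression table: TAL1, LYL1, GATA3, RUNX1, MYB, TCF3, TCF12, LMO1, LMO2 and LDB1. All 10 had a row, out of 26733 genes in the table, and 9 of them passed the filter on low counts. The names were proposed with earlier results of these data known. RNA with a poly(A) tail was sequenced from Jurkat cells, an established line of human T-cell leukaemia, in 4 libraries. The GNE987 group holds 2 libraries of cells exposed for 24 h to GNE987, a chimeric molecule whose one end binds BET bromodomain proteins and whose other end recruits the ligase VHL for their degradation, at a labelled dose of 25 nmol given with no volume. The untreated group holds 2 libraries of the same line, for which the labels name no vehicle. All values therefore describe 1 cell line.

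TAL1 and LYL1 are basic helix-loop-helix factors that bind E-box DNA as dimers with an E protein, TCF3 (which encodes E12 and E47) or TCF12 (HEB). LMO1 and LMO2 are LIM-only proteins that bind no DNA themselves, and LDB1 dimerises and ties the LMO-bound factors of distant sites together. GATA3, RUNX1 and MYB occupy neighbouring sites in the same enhancers, and in T-cell leukaemia TAL1, GATA3, RUNX1 and MYB are known to bind each other's enhancers in a loop that sustains itself. In Jurkat cells a short insertion upstream of TAL1 is known to create MYB binding sites and an enhancer that drives the gene. BET proteins read acetylated histones at such enhancers. The comparison of treated with untreated cells asks how the RNA of each circuit gene differed after the degrader; BET protein itself was not measured.

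Total counts were 17024157 and 16041022 in the GNE987 libraries, against 18938465 and 18441248 in the untreated ones, and 3 counts in a library equal 0.135 to 0.217 CPM. The 10 members took 0.0599% and 0.0594% of all counts with GNE987 and 0.1597% and 0.136% without. Untreated replicate 2 lay on the treated side of untreated replicate 1 for each of the 9 tested members. Its position on the linear CPM scale, with untreated replicate 1 at 0% and the treated mean at 100%, ran from 11.8% for TCF3 to 27.2% for GATA3. Without untreated replicate 2 the same numbers of members were called, 6 lower and 2 higher, with TAL1 at -1.81, MYB at -3.12, TCF12 at -3.13, LYL1 at -5.58 and GATA3 at 0.70. Log2 fold changes without untreated replicate 1 were -1.67 for TAL1, -2.87 for MYB, -2.94 for TCF12, -5.44 for LYL1 and 0.44 for GATA3. Of 12 T-cell markers 11 averaged at least 10 CPM in untreated cells. Among the 12 markers 8 fell and 1 rose, where 37.2% of all tested genes fell and 34.4% rose. Markers of other cells moved with the treatment as well. Summed levels of the 6 myeloid markers were 142 and 147 CPM with GNE987 and 0.584 and 29.8 CPM without. Most of the treated sum came from MPO and ITGAM, neither of which was called (adjusted p = 0.0702 and 0.0531, edgeR). MPO had 72.6 and 77.3 CPM with GNE987 and 0.0898 and 15.5 CPM without. ITGAM had 43.1 and 40.4 CPM with GNE987 and 0.135 and 9.23 CPM without. Of 5 tested 3 rose, and these calls were lost with either GNE987 library left out. The 3 were CD14, at 24.0 and 26.5 CPM with GNE987, LYZ, at 1.05 and 1.30 CPM, and CSF1R, at 0.985 and 1.09 CPM. CD33 had 0 counts with GNE987 and 1 and 2 without, and was not tested. The median log2 fold change of the tested myeloid markers was 3.17. It was 2.27 without untreated replicate 1 and 7.52 without untreated replicate 2. Summed levels of the 4 erythroid and megakaryocyte markers with a row were 18.6 and 16.6 CPM with GNE987 and 1.53 and 3.11 CPM without (2 of 3 rose). CD79A, a B-cell marker, rose (1.15) while CD79B and PAX5 had 0 to 12 counts per library; the summed B-cell level was 97.6 and 107 CPM with GNE987 and 41.4 and 51.4 CPM without. Epithelial markers summed to 1.18 and 1.52 CPM with GNE987 and 6.51 and 5.53 CPM without. That fall was ESRP1 (0.853 and 0.797 CPM with GNE987, 6.11 and 5.28 CPM without), while KRT8 was higher with GNE987. Fibroblast markers summed to 9.19 and 9.06 CPM with GNE987 and 2.33 and 2.52 CPM without. That rise was COL1A1 (8.53 and 8.62 CPM with GNE987, 1.17 and 1.88 CPM without), while PDGFRB was lower with GNE987 and not called. KRT18, COL3A1 and DCN had 0 to 5 counts per library. Mitochondrial mRNA took 7.02% and 7.48% of counts with GNE987 and 3.72% and 4.73% without. The part of these shifts in the circuit's values was not tested.

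The circuit genes did not move together. TAL1, LYL1, MYB, TCF12 and LMO1 fell steeply with GNE987, TCF3 fell slightly, GATA3 and LDB1 rose slightly, RUNX1 did not pass the test, and LMO2 stayed near the detection floor. Among the 9 tested members 6 were lower and 2 higher, with a median log2 fold change of -1.77 (adjusted p under 0.05, edgeR quasi-likelihood test, Benjamini-Hochberg over all genes). Across all 15910 tested genes 71.6% were called, 37.2% lower and 34.4% higher, with a median of -0.03, so most genes were called. With either GNE987 library left out 5 members were called, all lower, and 6070 or 6215 genes in all. A call combined with a fall of at least 4-fold, which LYL1, LMO1, TCF12 and MYB showed, was found for 13.8% of tested genes. Libraries of the groups did not overlap for 91.1% of tested genes. With library size alone in place of TMM factors (TMM assumes that most genes keep their level) the median of all genes moved by -0.37, and 7 members were lower and 0 higher. No spike-in fixes the absolute level, and in bulk RNA fewer cells of a kind and less RNA per cell cannot be told apart.

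**Figure D1:**
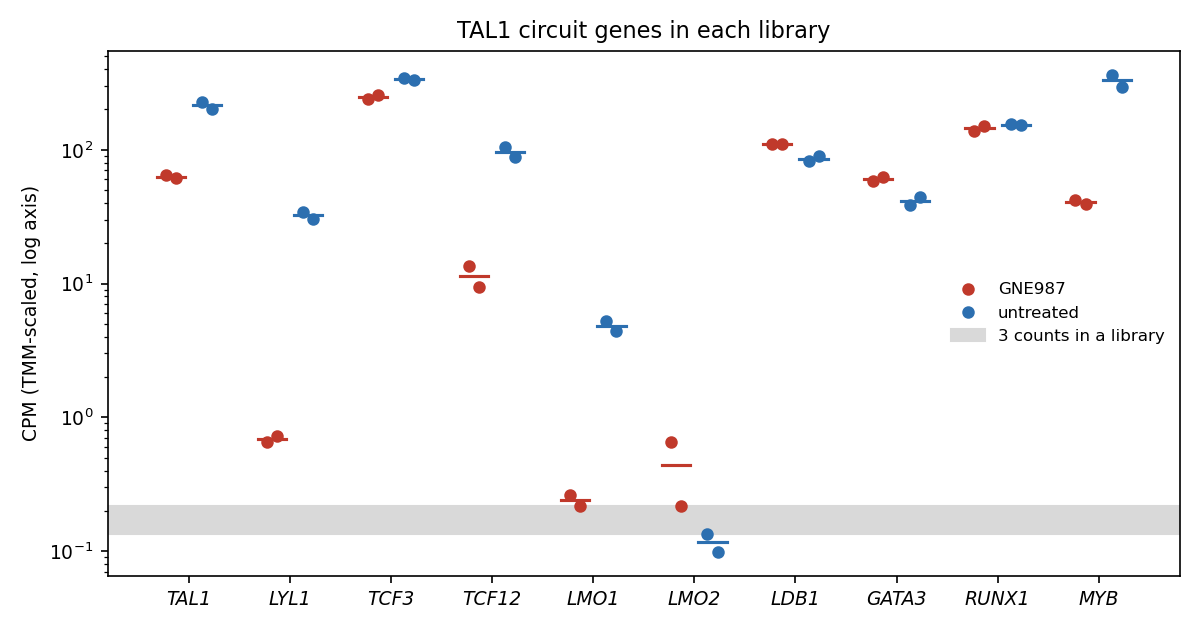
TMM-scaled CPM on a log axis for the 10 circuit genes, with 1 point per library, red for GNE987 and blue for untreated, a bar at each group's mean of 2 libraries, and a grey band at the CPM of 3 counts. TAL1, LYL1, TCF12, LMO1 and MYB sit well below their untreated points, while TCF3, LDB1, GATA3 and RUNX1 lie within 2-fold of them.

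TAL1 (ENSG00000162367, chromosome 1 from 47216290 to 47232220, GRCh38) had 64.7 and 61.1 CPM in the GNE987 libraries, against 229 and 201 CPM in the untreated ones. Both treated libraries lay below both untreated ones, with a log2 fold change of -1.77 ± 0.13 (SE), adjusted p = 0.000426 (edgeR). LYL1 (ENSG00000104903, chromosome 19 from 13099033 to 13103161), the closest relative of TAL1 in the circuit, had 10 and 10 counts in the GNE987 libraries, against 769 and 611 in the untreated ones. That is 0.656 and 0.725 CPM in the GNE987 libraries, against 34.5 and 30.2 CPM in the untreated ones, with a log2 fold change of -5.54 ± 0.21 (SE), adjusted p = 0.000292 (edgeR), the largest fall of the 9 tested members. LYL1 also fell relative to TAL1. The log2 ratio of LYL1 to TAL1 counts was -6.62 and -6.40 in the GNE987 libraries, against -2.73 and -2.73 in the untreated ones. This ratio does not depend on how libraries are scaled, and 2 libraries against 2 cannot give an exact permutation p below 0.333 (two-sided), which is the p of each of the 8 count ratios computed between members (the same after Benjamini-Hochberg adjustment). The share of TAL1 in the summed FPKM of TAL1 and LYL1 was 98.2% and 97.9% in the GNE987 libraries, against 78.4% and 78.5% in the untreated ones. FPKM is the authors' level per length, so a comparison between genes rests on the gene lengths they used, which were not checked here.

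The E proteins parted. TCF3 (ENSG00000071564, chromosome 19 from 1609290 to 1652605) had 240.3 and 255 CPM in the GNE987 libraries, against 345 and 334 CPM in the untreated ones. Its fall was small, with a log2 fold change of -0.45 ± 0.12 (SE), adjusted p = 0.0204 (edgeR). It did not pass with upper-quartile scaling (adjusted p = 0.124), with the filter of 10 CPM (0.0715), without GNE987 replicate 1 (0.187) or without GNE987 replicate 2 (0.135). TCF12 (ENSG00000140262, chromosome 15 from 56918623 to 57299281), the other E protein of the complex, had 13.5 and 9.42 CPM in the GNE987 libraries, against 104.5 and 87.99 CPM in the untreated ones. Its treated libraries were further apart than those of TAL1 but far below the untreated pair, with a log2 fold change of -3.07 ± 0.21 (SE), adjusted p = 0.000372 (edgeR). The log2 ratio of TCF12 to TCF3 counts was -4.16 and -4.76 in the GNE987 libraries, against -1.72 and -1.92 in the untreated ones. The share of TCF3 in the summed FPKM of both E proteins was 96.5% and 97.7% in the GNE987 libraries, against 83.7% and 85.5% in the untreated ones. Against its partners TAL1 moved in opposite ways. The log2 count ratio of TAL1 to TCF3 was -1.89 and -2.06 in the GNE987 libraries, against -0.59 and -0.73 in the untreated ones, and that of TAL1 to TCF12 was 2.26 and 2.70 in the GNE987 libraries, against 1.13 and 1.19 in the untreated ones.

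**Figure D2:**
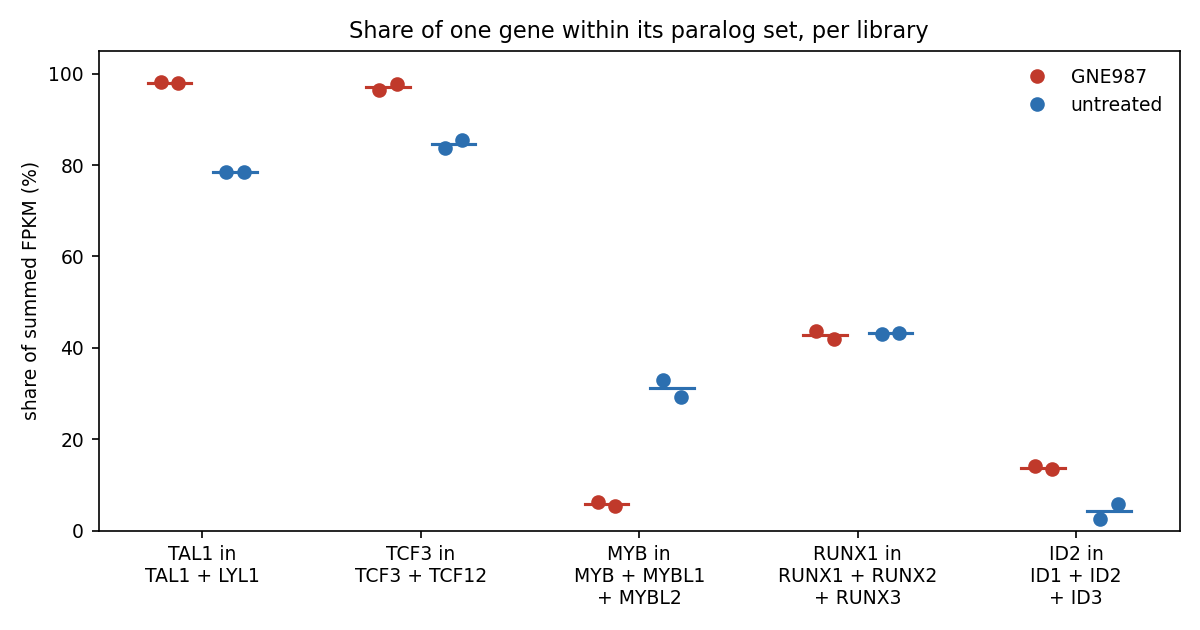
Share in percent of one gene in the summed deposited FPKM of its paralog set, with 1 point per library, red for GNE987 and blue for untreated, and a bar at each group's mean of 2 libraries. With GNE987 TAL1 and TCF3 made up at least 96.5% of their pairs and MYB at most 6.21% of its set, and the share of RUNX1 was 42.02% to 43.7% with GNE987.

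Of the bridging proteins, LMO1 (ENSG00000166407, chromosome 11 from 8224304 to 8268716) was transcribed at a low level. It had 4 and 3 counts in the GNE987 libraries, against 116 and 89 in the untreated ones. The ratio of summed counts, scaled by library size and TMM factor, was 0.05002 (95% exact interval 0.0199 to 0.105, counting error only), with a log2 fold change of -4.28 ± 0.41 (SE), adjusted p = 0.000788 (edgeR). LMO2 (ENSG00000135363, chromosome 11 from 33858576 to 33892289), the LIM-only member that other T-cell leukaemias activate by rearrangement, had 10 and 3 counts in the GNE987 libraries, against 3 and 2 in the untreated ones. With 3 counts per library as the floor, LMO2 was at or under it in 3 of 4 libraries and was not tested, so no fold is given. LDB1 (ENSG00000198728, chromosome 10 from 102107560 to 102120453), the scaffold, had 109.9 and 111 CPM in the GNE987 libraries, against 81.8 and 89.4 CPM in the untreated ones. The treated libraries were the higher ones, with a log2 fold change of 0.37 ± 0.11 (SE), adjusted p = 0.0312 (edgeR). This rise did not pass with the replicate number as a block (adjusted p = 0.0631), without the filter on low counts (0.219), without GNE987 replicate 1 (0.187) or without GNE987 replicate 2 (0.203), and with library size alone the log2 fold change was -0.0014.

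The 3 partners of other families went 3 ways. MYB (ENSG00000118513, chromosome 6 from 135181315 to 135219173), a progenitor factor, had 41.95 and 39.1 CPM in the GNE987 libraries, against 365 and 296 CPM in the untreated ones. The fall was 8.15-fold between group means, with a log2 fold change of -3.03 ± 0.16 (SE), adjusted p = 0.000295 (edgeR). GATA3 (ENSG00000107485, chromosome 10 from 8045378 to 8075203), the GATA factor of T cells, had 58.3 and 62.1 CPM in the GNE987 libraries, against 38.3 and 44.3 CPM in the untreated ones. Both treated libraries were higher, with a log2 fold change of 0.54 ± 0.13 (SE), adjusted p = 0.0127 (edgeR). GATA3 did not pass with library size alone (log2 fold change 0.17, adjusted p = 0.295), without the filter on low counts (0.0537), without GNE987 replicate 1 (0.0841) or without GNE987 replicate 2 (0.114). RUNX1 (ENSG00000159216, chromosome 21 from 34787801 to 36004667), the core-binding factor subunit that contacts DNA, had 139 and 151 CPM in the GNE987 libraries, against 155 and 153 CPM in the untreated ones. Its log2 fold change was -0.09 ± 0.12 (SE), with a 95% interval of -0.39 to 0.21 and an adjusted p of 0.5296 (edgeR). A change of 1.5-fold in either direction lies outside that interval, which holds for TMM scaling with all 4 libraries only. With library size alone RUNX1 was at -0.46 (adjusted p = 0.0196), and with RLE factors, upper-quartile scaling, DESeq2 and the filter of 10 CPM its sign turned. The log2 count ratio of MYB to RUNX1 was -1.73 and -1.95 in the GNE987 libraries, against 1.23 and 0.95 in the untreated ones, and that of GATA3 to RUNX1 was -1.25 and -1.28 in the GNE987 libraries, against -2.01 and -1.79 in the untreated ones.

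Per the authors' deposited table, the log2 fold changes of the members were -1.77 for TAL1, -5.55 for LYL1, -3.03 for MYB, -3.07 for TCF12 and -4.32 for LMO1. That table lists an adjusted p under 0.05 for the same 8 members, where it lists one for 37.3% of all its 26733 genes. Genes with low counts are included there, while the 71.6% given above is over the 15910 genes that passed the filter. The 2 shares are therefore not alike. For RUNX1 and LMO2 it gives an adjusted p of 0.656 and 0.339.

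**Figure D3:**
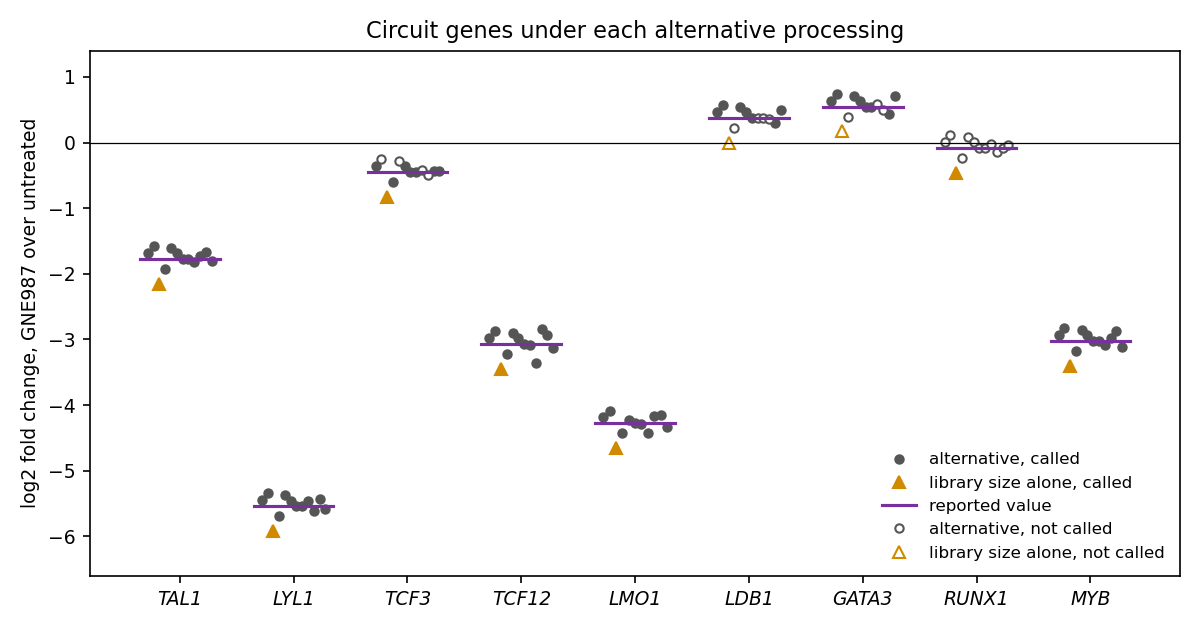
Log2 fold change, GNE987 over untreated, of the 9 tested members: the purple bar is the reported value and each point 1 alternative processing, filled where the gene was called at an adjusted p under 0.05, with orange triangles for library size alone. TAL1, LYL1, TCF12, LMO1 and MYB were called under every alternative that tested them, while TCF3, LDB1 and GATA3 were called under some and RUNX1 under 1.

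TAL1, MYB, GATA3 and RUNX1 form the known loop, and TAL1 and MYB were called lower, GATA3 higher and RUNX1 neither, so the promoter letters of all 4 are shown. The RefSeq table used here held starts for 9 of the 10 members, and the promoter of LMO2 was not analysed here. The 250 bases before the starts (GRCh38.p14) follow, with 2 starts for TAL1 and the first of 6 for GATA3. Gene-level counts do not say which start was used. Only 1 RUNX1 start was listed, and it lies inside the gene body, far downstream of the annotated start at 36004667. Bases after the first listed starts of TAL1 and GATA3 did not occur in a GENCODE 29 transcript of the gene. Those after the other printed starts did, as did those after GATA3 starts 4 and 5. Capitals mark E-boxes (CANNTG with N any base, a form not particular to TAL1). They also mark GATA on either strand (GATA or TATC) and the RUNX core on either strand (TGTGGT or ACCACA). No marked motif overlaps another here.
TAL1, first listed start (chr1:47232336-47232585, minus strand): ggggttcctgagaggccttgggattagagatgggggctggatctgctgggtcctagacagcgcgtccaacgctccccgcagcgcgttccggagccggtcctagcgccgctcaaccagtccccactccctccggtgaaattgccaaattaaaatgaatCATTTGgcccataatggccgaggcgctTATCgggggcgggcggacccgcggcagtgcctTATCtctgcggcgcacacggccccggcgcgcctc
TAL1, second listed start (chr1:47231716-47231965, minus strand): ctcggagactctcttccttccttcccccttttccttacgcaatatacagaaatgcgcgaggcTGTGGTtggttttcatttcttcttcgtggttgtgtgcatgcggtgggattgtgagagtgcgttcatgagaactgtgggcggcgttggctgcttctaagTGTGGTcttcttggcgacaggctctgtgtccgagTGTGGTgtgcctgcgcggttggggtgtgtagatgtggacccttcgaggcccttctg
MYB (chr6:135181058-135181307, plus strand): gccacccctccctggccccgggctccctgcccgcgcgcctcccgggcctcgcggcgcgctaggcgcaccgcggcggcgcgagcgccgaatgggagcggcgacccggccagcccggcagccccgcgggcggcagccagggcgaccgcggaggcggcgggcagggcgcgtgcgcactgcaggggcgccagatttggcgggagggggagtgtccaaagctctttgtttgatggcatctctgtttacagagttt
GATA3, first listed start (chr10:8045083-8045332, plus strand): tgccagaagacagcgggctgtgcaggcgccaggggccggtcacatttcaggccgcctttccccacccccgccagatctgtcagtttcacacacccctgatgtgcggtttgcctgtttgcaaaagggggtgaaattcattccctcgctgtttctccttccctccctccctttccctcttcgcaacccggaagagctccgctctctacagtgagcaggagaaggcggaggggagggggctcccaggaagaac
RUNX1 (chr21:34888700-34888949, minus strand): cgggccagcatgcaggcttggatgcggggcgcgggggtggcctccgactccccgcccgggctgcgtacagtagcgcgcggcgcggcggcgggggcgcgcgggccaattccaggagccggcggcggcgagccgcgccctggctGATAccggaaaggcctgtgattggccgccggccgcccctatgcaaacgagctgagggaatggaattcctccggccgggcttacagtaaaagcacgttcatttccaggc
The first TAL1 window holds 1 E-box and 2 GATA matches, the second holds 3 RUNX cores, the RUNX1 window holds 1 GATA match, and the MYB and GATA3 windows hold none of the 3. The windows of the other 5 GATA3 starts, not printed, hold 3 E-boxes, 2 GATA matches and 1 RUNX core in all. Of all 35116 listed windows of this length, 61.8% hold an E-box, 45.6% a GATA match and 11% a RUNX core. A match is a run of letters and not a measured binding site.

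Per length, TCF3 and LDB1 led the circuit in treated cells, at 40.2 ± 1.78 and 39.2 ± 0.458 FPKM (mean ± SD, n = 2), and their libraries overlapped. GATA3 followed at 17.3 ± 0.8202 FPKM, then TAL1 at 10.9 ± 0.409, RUNX1 at 9.19 ± 0.577 and MYB at 7.28 ± 0.348 FPKM, which did not overlap each other. TCF12 was at 1.196 ± 0.295 FPKM, LYL1 at 0.219 ± 0.0159, and LMO1 and LMO2 overlapped at 0.1403 ± 0.0183 and 0.139 ± 0.0983 FPKM. In untreated cells MYB and TCF3 led, at 59.5 ± 9.898 and 55.1 ± 2.42 FPKM, and overlapped. TAL1 came next at 37.3 ± 4.22 FPKM and then LDB1 at 30.3 ± 1.32 FPKM. GATA3 at 11.9 ± 0.973 FPKM lay just above LYL1 at 10.2 ± 1.18, TCF12 at 10.1 ± 1.42 and RUNX1 at 9.76 ± 0.278 FPKM, whose libraries overlapped. LMO1 at 2.81 ± 0.392 and LMO2 at 0.0371 ± 0.00881 FPKM came last. MYB thus went down 5 places in this order by FPKM and RUNX1 went up 3 with no called change of its own. The order rests on the gene lengths the authors used. RUNX1 had more CPM but less FPKM than GATA3 in every library.

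The ID proteins are dimerisation partners that hold E proteins off DNA. All 3 tested ID genes rose (median log2 fold change 1.36), where 34.4% of all tested genes rose. ID4 is not analysed here. ID2 had 46.5 and 48.9 CPM in the GNE987 libraries, against 4.58 and 13.3 CPM in the untreated ones. The untreated libraries were far apart and both below the treated pair, with a log2 fold change of 2.42 ± 0.47 (SE), adjusted p = 0.00695 (edgeR). ID1 had 46.5 and 53.8 CPM in the GNE987 libraries, against 15.04 and 24.1 CPM in the untreated ones, with a log2 fold change of 1.36 ± 0.25 (SE), adjusted p = 0.00546. ID3, the most abundant of the set, had 163 and 177 CPM in the GNE987 libraries, against 122 and 137 CPM in the untreated ones, with a log2 fold change of 0.39 ± 0.13 (SE), adjusted p = 0.0392. Without untreated replicate 2 the log2 fold changes of ID1, ID2 and ID3 were 1.79, 3.43 and 0.53. They were 1.05, 1.84 and 0.31 without untreated replicate 1. No ID gene passed without GNE987 replicate 2 (adjusted p = 0.0541, 0.0532 and 0.261), and without GNE987 replicate 1 ID2 (0.0502) and ID3 (0.157) did not. ID3 also did not pass with library size alone (log2 fold change 0.02), without the filter on low counts (0.24) or with the replicate number as a block (adjusted p = 0.0597). The share of ID2 in the summed FPKM of the 3 ID genes was 14.1% and 13.5% in the GNE987 libraries, against 2.53% and 5.91% in the untreated ones.

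Paralogs of the members moved in both directions. Of 7 tested 2 rose and 2 fell, with a median of -0.18, where 34.4% of all tested genes rose and 37.2% fell. The counts were 2 and 4 with library size alone, and 2 and 1 with RLE factors or upper-quartile scaling. MYBL1, a relative of MYB known from germ cells, had 39.5 and 34.9 CPM with GNE987 and 6.73 and 12.8 CPM without (log2 fold change of 1.93 ± 0.31 (SE), adjusted p = 0.00387), while MYB itself fell. MYBL2, the cell cycle member of that family, had 305 and 337 CPM with GNE987 and 371 and 357 CPM without (log2 fold change -0.18 ± 0.13, adjusted p = 0.248). The share of MYB in the summed FPKM of the 3 MYB genes was 6.21% and 5.34% in the GNE987 libraries, against 33.1% and 29.2% in the untreated ones. LMO4, a LIM-only gene of many tissues, rose to 155 and 134 CPM in the GNE987 libraries, against 45.7 and 62.2 CPM in the untreated ones (log2 fold change of 1.42 ± 0.19 (SE), adjusted p = 0.00213), as LMO1 fell. Without untreated replicate 2 the log2 fold changes of MYBL1 and LMO4 were 2.52 and 1.71. They were 1.53 and 1.21 without untreated replicate 1. RUNX2, the bone member of the RUNX family, was low and fell, at 0.263 and 0.5798 CPM with GNE987 and 2.83 and 2.91 CPM without (log2 fold change of -2.77 ± 0.47 (SE), adjusted p = 0.00458; -2.29 without GNE987 replicate 1 and -3.42 without GNE987 replicate 2). RUNX3, the RUNX factor of mature T cells, had 51.8 and 60.2 CPM with GNE987 and 57.8 and 56.9 CPM without (95% interval -0.35 to 0.28, adjusted p = 0.813). The share of RUNX1 in the summed FPKM of the RUNX genes was 43.7% and 42.02% in the GNE987 libraries, against 43.1% and 43.2% in the untreated ones. GATA2, a factor of blood stem cells, was called at -0.48 ± 0.17 (adjusted p = 0.0491) and lost that call in 8 of 12 alternatives (adjusted p = 0.102 without GNE987 replicate 1, 0.233 without GNE987 replicate 2 and 0.0751 omitting untreated replicate 2). TCF4, the remaining E protein, had 1.05 and 1.16 CPM with GNE987 and 1.71 and 1.78 CPM without (adjusted p = 0.152). TAL2, GATA1 and LMO3 had 0 to 3 counts per library and were not tested.

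**Figure D4:**
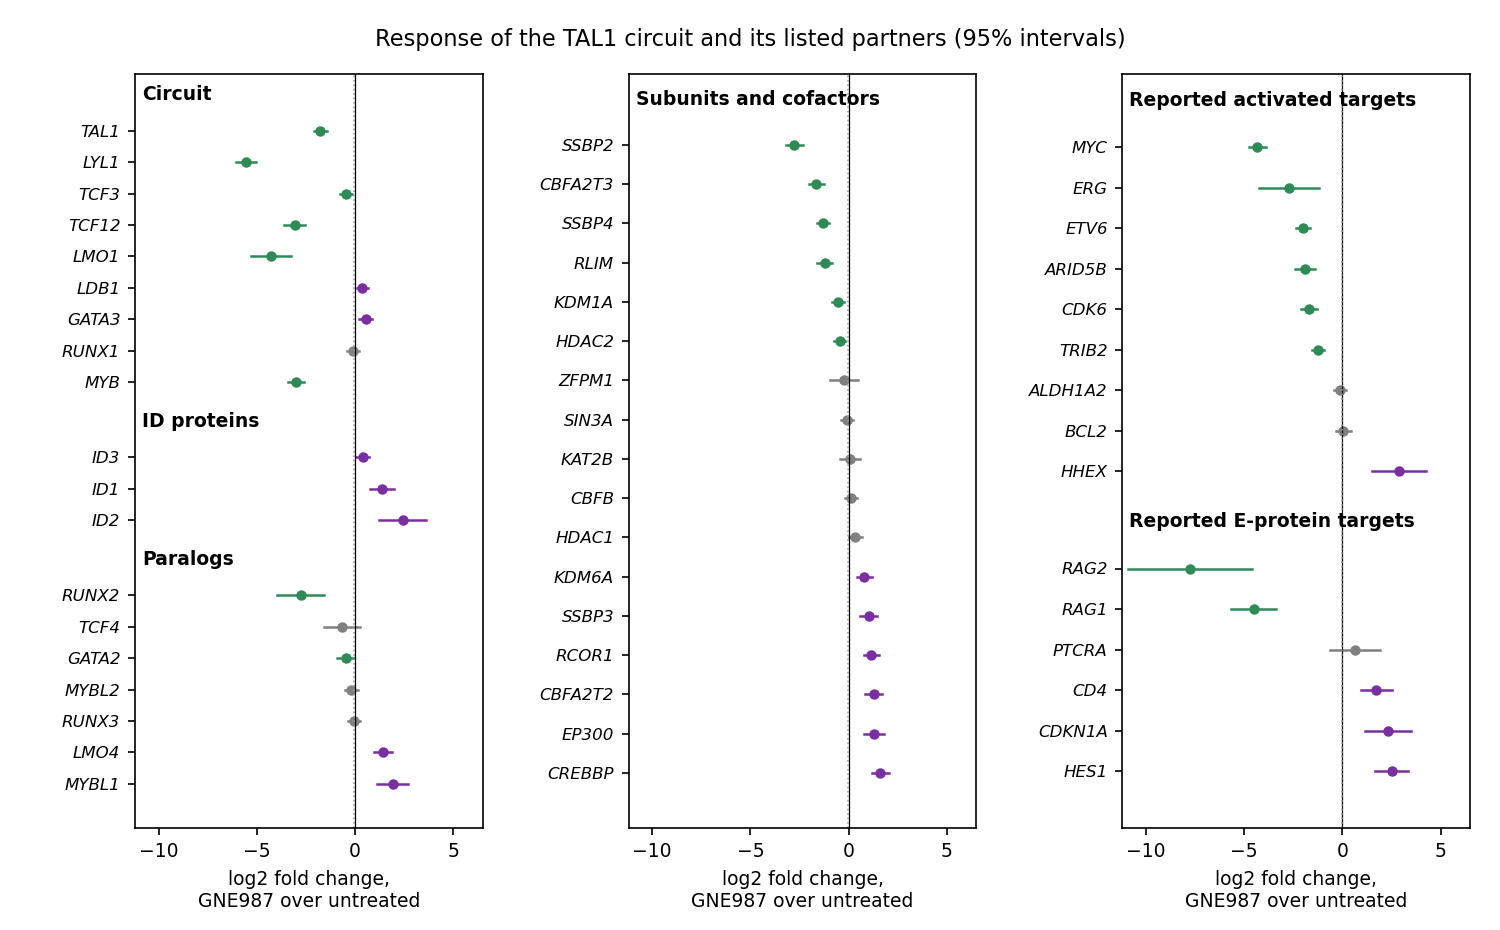
Log2 fold change, GNE987 over untreated, with 95% intervals from edgeR for every tested gene of the circuit and of 5 related lists, purple where higher, green where lower and grey where not called at an adjusted p under 0.05; the dotted line is the median of all tested genes, and the RAG2 value rests on 0 counts with GNE987, so it depends on the prior count and is no bound. The circuit spans from LYL1 at -5.54 to GATA3 at 0.54, and each list but the ID genes holds calls in both directions.

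Subunits and cofactors that join the complex were called about as often as genes at large. Of 17 tested 6 rose and 6 fell, with a median of 0.06, where 34.4% of all tested genes rose and 37.2% fell (library size alone gave 5 higher and 7 lower, upper-quartile scaling 7 and 4). The single-stranded DNA-binding proteins, which bind LDB1 and protect it from degradation, went apart: SSBP2 had 6.57 and 6.74 CPM with GNE987 and 49.97 and 40.1 CPM without, and SSBP3 had 216 and 201 CPM with GNE987 and 88.7 and 118 CPM without. SSBP2 fell by 2.76 ± 0.17 and SSBP4 by 1.32 ± 0.13 on the log2 scale, while SSBP3 rose by 1.02 ± 0.17 (adjusted p = 0.000309, 0.000809 and 0.00444; 0.0543 for SSBP3 without GNE987 replicate 1). RLIM, a ubiquitin ligase that targets LDB1, fell too, with 11.2 and 11.5 CPM with GNE987 and 29.2 and 23.8 CPM without (log2 fold change of -1.23 ± 0.16 (SE), adjusted p = 0.00213). The ETO-family corepressors also parted. CBFA2T3, which sits on TAL1 complexes, had 14.3 and 13.1 CPM with GNE987 and 46.2 and 39.4 CPM without (log2 fold change of -1.64 ± 0.15 (SE), adjusted p = 0.000641), and CBFA2T2 had 45.4 and 48.2 CPM with GNE987 and 16.4 and 22.5 CPM without (log2 fold change of 1.27 ± 0.18 (SE), adjusted p = 0.00275). The acetyltransferase genes EP300 and CREBBP rose, by 1.29 ± 0.20 and 1.62 ± 0.18 (adjusted p = 0.00358 and 0.00131). RCOR1 rose by 1.15 ± 0.15, and KDM1A, its demethylase partner, fell by 0.55 ± 0.12 (adjusted p = 0.00219 and 0.0115). CBFB, the non-DNA-binding partner of RUNX1, had 123 and 109.9 CPM with GNE987 and 111 and 103 CPM without (log2 fold change 0.12 ± 0.12, 95% interval -0.19 to 0.43, adjusted p = 0.416). KDM1A and HDAC2 (-0.46 ± 0.11) lost their calls with either GNE987 library left out (adjusted p = 0.125 and 0.111 for KDM1A, 0.127 and 0.162 for HDAC2) and with upper-quartile scaling (0.0548 and 0.0913), and KDM6A (0.81 ± 0.15) lost its call without GNE987 replicate 1 (0.06004) and with library size alone (0.0888).

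Genes reported to be activated by circuit members in leukaemia or blood cells mostly fell. Of 9 tested 6 fell and 1 rose, where 37.2% of all tested genes fell and 34.4% rose. The median was -1.68 against -0.03 for all genes. ARID5B, an oncogenic target of TAL1, had 3.94 and 3.77 CPM with GNE987 and 15.8 and 13.1 CPM without (log2 fold change of -1.91 ± 0.21 (SE), adjusted p = 0.00121). TRIB2, a pseudokinase on which TAL1-positive cells depend, had 15.8 and 17.03 CPM with GNE987 and 39.8 and 37.3 CPM without (log2 fold change of -1.23 ± 0.13 (SE), adjusted p = 0.000999). The ETS-family genes ETV6 and ERG fell by 1.98 ± 0.14 and 2.72 ± 0.60, with ERG at 7 summed counts with GNE987 and 70 without (ratio 0.146, 95% exact interval 0.0568 to 0.318). ERG did not pass without GNE987 replicate 1 (adjusted p = 0.07801) and was at -3.57 without GNE987 replicate 2. MYC, a growth regulator, and CDK6, a G1 kinase, fell with log2 fold changes of -4.32 and -1.68 (adjusted p = 0.000292 and 0.000838). ALDH1A2, a known target of TAL1 with GATA3 in Jurkat cells, was not called. It had 231 and 244 CPM in the GNE987 libraries, against 261 and 251 CPM in the untreated ones (95% interval -0.41 to 0.20, adjusted p = 0.447). BCL2, a MYB target, had 17.4 and 17.3 CPM with GNE987 and 17.9 and 15.6 CPM without (adjusted p = 0.761). HHEX, a target of LMO2 complexes, rose, with 39.7 and 31.1 CPM with GNE987 and 2.11 and 7.41 CPM without (log2 fold change of 2.90 ± 0.55 (SE), adjusted p = 0.00623; 2.26 without untreated replicate 1, 4.12 omitting untreated replicate 2, and adjusted p = 0.0538 without GNE987 replicate 1). KIT and NFE2 were not tested.

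Genes that E proteins are known to activate went both ways, 3 higher and 2 lower of 6 tested. Over all tested genes 34.4% were higher and 37.2% lower. The median of the 6 was 1.18, the same with RAG2 at its bound. RAG1 and RAG2, the recombinase genes of immature lymphocytes, fell. RAG1 had 2 and 2 counts in the GNE987 libraries, against 76 and 65 in the untreated ones (ratio 0.0416, 95% exact interval 0.0112 to 0.109; adjusted p = 0.000967). RAG2 had 0 and 0 counts in the GNE987 libraries, against 41 and 23 in the untreated ones, at least 7.18-fold lower when each GNE987 library is put at 3 counts (adjusted p = 0.00522). CD4, the coreceptor of helper T cells, had 9.19 and 8.77 CPM with GNE987 and 2.07 and 3.41 CPM without (log2 fold change of 1.72 ± 0.31 (SE), adjusted p = 0.00562). HES1, a repressor of the NOTCH pathway, had 20.2 and 19.7 CPM with GNE987 and 2.33 and 4.64 CPM without (log2 fold change of 2.52 ± 0.34 (SE), adjusted p = 0.00224). CDKN1A, the inhibitor p21, had 172 and 179.9 CPM with GNE987 and 18.4 and 51.5 CPM without (log2 fold change of 2.33 ± 0.47 (SE), adjusted p = 0.00783). Without untreated replicate 2 the log2 fold changes of CD4, HES1 and CDKN1A were 2.17, 3.15 and 3.31, and CDKN1A did not pass with either GNE987 library left out (adjusted p = 0.0523 and 0.0551). PTCRA, the pre-T-cell receptor chain, had 15 and 20 counts in the GNE987 libraries, against 22 and 11 in the untreated ones (adjusted p = 0.282).

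Within 50 kb of a member's body lay 30 other genes of the table, of which 17 were tested, 5 higher and 8 lower, a share close to the 71.6% called over all genes (3 and 9 with library size alone). STIL, a centriole gene upstream of TAL1 on the same strand, had 211 and 204 CPM with GNE987 and 37.7 and 68.7 CPM without (log2 fold change of 1.96 ± 0.29 (SE), adjusted p = 0.00308; 2.51 without untreated replicate 2), opposite to TAL1. AL135960.1 overlaps TAL1 on the other strand and had 2.56 and 2.25 CPM with GNE987 and 6.64 and 5.14 CPM without (log2 fold change of -1.29 ± 0.29 (SE), adjusted p = 0.0108). The labels name the TruSeq RNA kit and no strand setting, so reads from bases that AL135960.1 and TAL1 share may not be told apart. AL135960.1 did not pass without GNE987 replicate 1 (adjusted p = 0.0594) or replicate 2 (0.07498). Around LYL1, TRMT1 (-2.37), NFIX (-2.07), NACC1 (-1.24) and STX10 (-0.82) fell by less than LYL1 itself, and IER2, an immediate early gene, rose by 1.96 ± 0.33 (2.59 without untreated replicate 2). STX10 did not pass without GNE987 replicate 2 (adjusted p = 0.05401). Near TCF3, MBD3 (-1.32) and UQCR11 (-1.15) fell further than TCF3, and MEX3D rose (0.73, adjusted p = 0.0623 and 0.0975 with either GNE987 library left out, 0.0592 with library size alone). Near LDB1, PPRC1 fell (-1.15), HPS6 rose (1.02) and NOLC1 was at 0.20 (adjusted p = 0.178). Downstream of TCF12, LINC00926 was called at 1.30 and lost that call in 6 of 11 alternatives, among them without GNE987 replicate 1 (0.184) and replicate 2 (0.102), and AC090517.5, beside the TCF12 start, was at -1.75 (adjusted p = 0.164; 0.0322 without untreated replicate 1). TAF3 near GATA3 and SETD4 near RUNX1 were at -0.17 and -0.12 (adjusted p = 0.307 and 0.574). GATA3-AS1 and MYB-AS1, which overlap their genes on the other strand, had at most 5 and 18 counts in a library and were not tested. MYB, LMO1 and LMO2 had no tested neighbour.

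**Figure D5:**
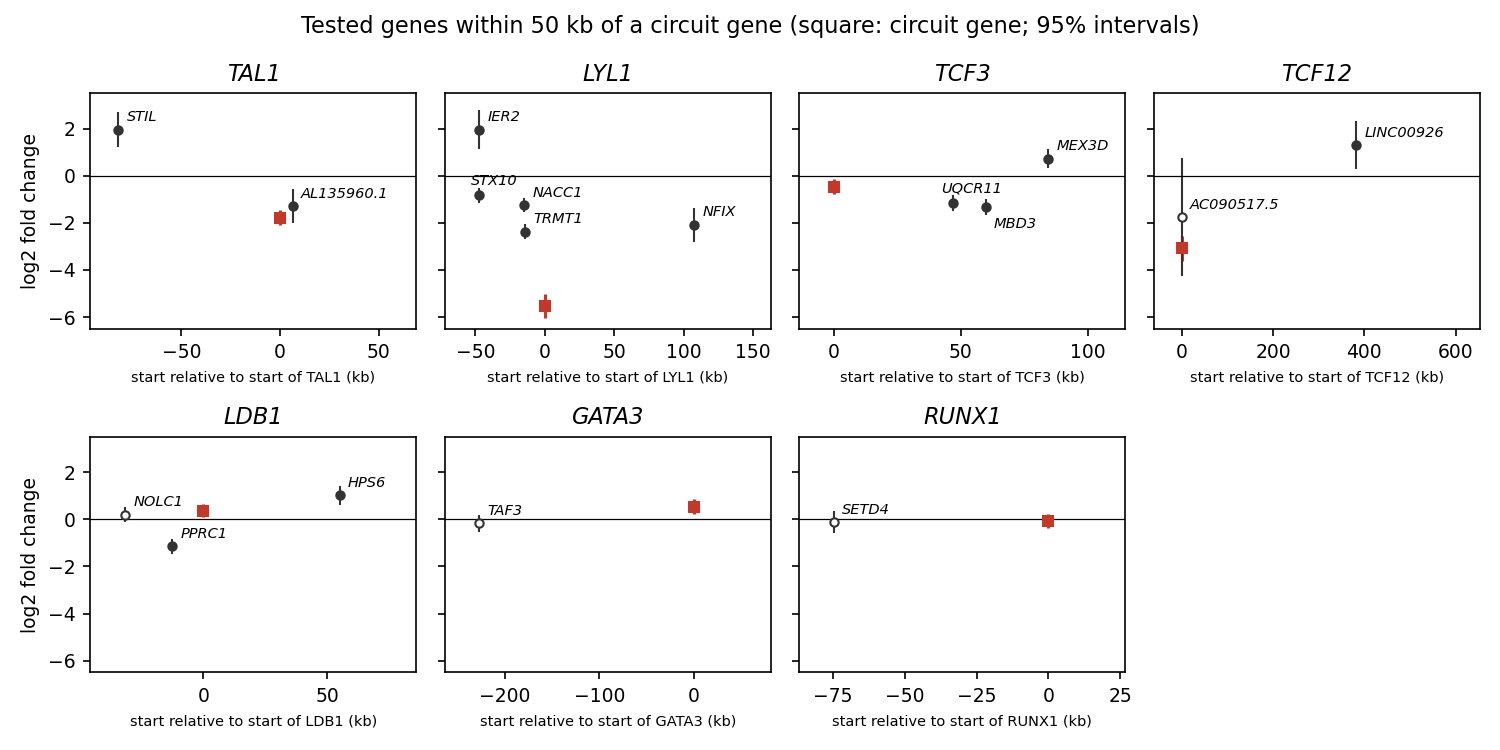
Log2 fold change, GNE987 over untreated, against the distance in kb from the start of a circuit gene (positive is downstream in that gene's direction), for tested genes within 50 kb of its body; red squares are the circuit genes, black points their neighbours, open where not called, with 95% intervals. STIL and IER2 lie at about 2 above falling members, and LYL1 fell further than each of its 5 tested neighbours.

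The profile of TAL1 over the 4 libraries was a common one. The 5 genes nearest to it in log2 CPM, each centred on its own mean, were LACTB, ANKRD9, BTN3A1, TTI1 and POLR3G, at distances of 0.0234 to 0.0317. Of 8502 genes compared, 1073 lay within a distance of 0.5, and with 4 libraries in 2 groups such likeness amounts to a similar fold change.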

How the data were processed

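Read counts came from the deposited table, in which the authors gave whole-number counts per gene and library, judged from the values and column names. Per the submitters' processing notes, HISAT2 2.2.0 and hg38 were used. For the counter, its annotation and its strand setting, the sources used here give nothing. The authors also deposited a normalized signal, equal to the count divided by 1 factor per library, and FPKM values proportional to that signal within a gene. The table holds the authors' log2 fold changes and p-values as well; their test is not stated. Libraries were made with the TruSeq RNA kit after TRIzol extraction, per the labels' protocols.

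Counts were filtered with filterByExpr of edgeR 4.0.16 (minimum count 10, minimum total 15), scaled by TMM and put through its quasi-likelihood test (glmQLFit and glmQLFTest, defaults, R 4.3.3, 2 residual degrees of freedom), GNE987 over untreated. Benjamini-Hochberg adjustment ran over 15910 genes, with a threshold of 0.05. Standard errors come from the log2 fold change over the root of its F value. CPM are TMM-scaled, and shares of counts use the total. Ratios between members were compared with an exact two-sided permutation test. Whether replicates are separate cultures is not stated, so the p-values cover the spread between these libraries alone, which may be technical. Reads carry no molecular identifiers, so intervals on counts and floors cover counting error only.

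All 26733 gene identifiers matched GENCODE 29, which gave coordinates and neighbours, and promoter sequence is from RefSeq on GRCh38.p14. The members and lists were chosen with earlier results of these data known, and some listed genes are not reported here. Named genes are the 10 members, tested genes of the lists, tested neighbours and the 5 genes nearest to TAL1 with a mean of at least 10 CPM. Alternatives were other scalings (RLE, upper quartile, library size alone), no filter or a filter of 10 CPM in 2 libraries, DESeq2 1.42.0, robust dispersion, a block for replicate number, and omission of each library in turn, which leaves 1 sample in a group that is assumed to vary like the other group.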

Additional observations from a re-analysis of the deposited data

How the results depend on the processing

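TAL1, LYL1, MYB and TCF12 kept their direction and their call in 12 of 12 alternatives and LMO1 in 11 of 11, the filter of 10 CPM having removed it. Their log2 fold changes ranged from -2.15 to -1.58, -5.91 to -5.34, -3.40 to -2.83, -3.44 to -2.84 and -4.65 to -4.09. GATA3 and TCF3 were called in 8 of 12, LDB1 in 7 and RUNX1 in 1. The count of members called was 8, and 5 to 8 with a library left out; both values of 5 came without a GNE987 library, which leaves the untreated pair to set the spread. Over all genes it was 11387, and 6070 to 12921 with a library left out. With the replicate number as a block 7 members, 29 genes of the 5 related lists (31 without the block), 12 neighbours (13 without) and 9801 genes in all were called. Whether the numbers pair the samples is not known. Over genes, the differences of replicate 1 and replicate 2 correlated at r = -0.00595 between the groups. The untreated difference ran toward the treated side for each tested member, so this r does not decide the question. The ratios between members kept their sign without each library and with FPKM. The log2 fold changes that turned in sign were those of 14 genes, reported between -0.25 (ZFPM1) and 0.37 (LDB1), and the cause was not tested. With RLE factors they were RUNX1 0.0044, RUNX3 0.057 and SIN3A 0.024. With upper-quartile scaling they were RUNX1 0.11, RUNX3 0.16, MYBL2 0.018, SIN3A 0.13, ALDH1A2 0.090, TAF3 0.027 and SETD4 0.079. With the filter of 10 CPM they were RUNX1 0.083, RUNX3 0.14, SIN3A 0.10, ALDH1A2 0.062 and SETD4 0.050. With DESeq2 they were RUNX1 0.0043, RUNX3 0.057 and SIN3A 0.024. With library size alone they were LDB1 -0.0014, CBFB -0.25, HDAC1 -0.033, KAT2B -0.31, BCL2 -0.32 and NOLC1 -0.17. Without the filter on low counts they were CBFB -0.028, KAT2B -0.082 and BCL2 -0.094. With a library left out RUNX3 ranged from -0.15 to 0.070, ZFPM1 ranged from -0.60 to 0.029, SETD4 ranged from -0.27 to 0.018. Among the other comparisons of single genes, 700 kept direction and call, 53 lost the call and 18 gained it. Low counts limit LMO2, LMO1, ERG, RAG1 and RAG2 among others, and 2 libraries a group limit all tests.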
